A study of Mus musculus with 30 samples.

Results

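The genes of DNA replication and of the G1/S transition were described as a list of 38 genes, taken by symbol from the deposited expression table. All 38 were found among its 23284 genes. All 38 also passed the filter used for testing, a mean of at least 10 normalized counts over the libraries, which 14539 genes passed.

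A cell copies its DNA once per division from many origins. In G1 the origin recognition complex, with CDC6 and CDT1, loads the MCM helicase onto DNA, and geminin holds CDT1 back once replication has begun. At the start of S phase CDC45 and the GINS complex join the MCM ring, primase and the polymerases copy both strands, and the sliding clamp PCNA keeps the polymerases on their template. Cyclin E and the E2F transcription factors govern the entry into S phase, and the genes of this machinery are widely known as targets of E2F. In a tumour they are commonly read as signs of dividing cells.

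The study profiled mouse lung tumours driven by K-RAS, a GTPase that passes growth signals into the cell. By the labels there were 10 tumours from 5 animals in the NAC-treated group, 10 tumours from 5 animals in the Vitamin E-treated group and 10 tumours from 5 animals in the Untreated group. NAC is N-acetylcysteine, an antioxidant, as vitamin E is. The allele, the promoter behind it, the age of the mice, and the doses and times of treatment are not given in the sources used here.

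The columns of the table carry a letter C, B or A, a digit from 1 to 5 and a last digit of 0 or 1, and no source used here states which letter holds which treatment. The letters are therefore given as letters, a column letter with its first digit is taken as an animal, and the columns that share both are called sister tumours. This reading rests on the shape of the names, which has the 3 by 5 by 2 layout of the study, and not on a label. Tumour C10 is thus the first tumour of animal C1. Which of the letters held untreated animals is unknown, so no difference below can be assigned to a treatment.

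The deposited values are normalized read counts, in which 1 read was worth between 0.841 and 1.18 units, and the reads recovered from them came to between 18322631 and 24408946 per library. Between 16490 and 17297 genes had reads in a library. A list of 8 genes stood for tumour epithelium of alveolar type 2, the surfactant-making cells that these tumours are known to resemble. It held Sftpc, Sftpb, Sftpa1, Sftpd and Lamp3, with Nkx2-1, Epcam and Cdh1. These genes are called the alveolar type 2 markers below. All 8 were present, with summed levels of 2399190 to 2911280 normalized counts in the tumours of letter C, 1752340 to 2913600 in those of letter B and 1281840 to 2434980 in those of letter A. Tumour A11, with a median correlation of 0.915 with the other libraries, and tumour C21, with 0.941, stood apart. Tumour A11 held 19114 normalized counts of the heart gene Nppa. Tumours C21 and C11 held 36498 and 5537 normalized counts of the skeletal muscle gene Acta1. The names also carry 12 index sequences, the tags that mark a library in a pool, and the same index returns up to 3 times along the columns. All tumours of letter A and those of animal B1 belong to the 1st occurrence. The other tumours of letter B and those of animals C1 and C2 belong to the 2nd, and those of C3, C4 and C5 to the 3rd. Letters A and C thus share no occurrence, and this order and the letters cannot be fully told apart. In whole pieces of tumour, fewer cells of a type and less RNA per cell cannot be told apart.

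Since E2F is the factor most tied to these genes, their promoters were read first. RefSeq holds a promoter, from 250 bases before to 50 bases after the start on build GRCm38.p6, for 31 of the 38 genes. It was searched on both strands for 4 words that E2F is known to bind: TTTCCCG, its variant TTTCGCG, a further variant TTTGCCG, and lastly the form TTTGGCG. At least 1 word was found in 17 of the 31 genes (54.8%), against 2067 of all 27025 genes with a promoter there (7.65%). The 150 bases before the start are shown, 5′ to 3′ on the strand of the gene, for 4 genes with a word, among them 3 whose levels differed between animals (Mcm6, Cdc6 and Pola1), and for Orc6 and Pcna, which had none but also differed between animals. Capitals mark the words. The starts are those of RefSeq. By a GRCm38 exon annotation Cdc6 begins at 98907801, and Pcna, on the minus strand, at 132253314. All bases shown for Cdc6 and most of those shown for Pcna thus lie inside the gene by that annotation. The first stretch of capitals in Mcm6 holds a pair of overlapping words on opposite strands.
Mcm6 (chr1:128359706-128359855, minus strand): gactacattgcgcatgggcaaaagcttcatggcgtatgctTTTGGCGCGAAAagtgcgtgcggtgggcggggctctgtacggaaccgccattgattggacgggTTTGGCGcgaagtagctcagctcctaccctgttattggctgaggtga
Orc1 (chr4:108579304-108579453, plus strand): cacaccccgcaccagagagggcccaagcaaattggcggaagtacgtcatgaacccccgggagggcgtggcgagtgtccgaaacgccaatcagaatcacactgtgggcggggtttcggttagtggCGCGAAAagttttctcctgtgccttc
Cdc6 (chr11:98908001-98908150, plus strand): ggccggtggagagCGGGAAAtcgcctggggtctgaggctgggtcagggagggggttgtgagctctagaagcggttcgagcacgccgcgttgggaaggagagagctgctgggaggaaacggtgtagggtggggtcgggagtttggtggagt
Pola1 (chrX:93632156-93632305, minus strand): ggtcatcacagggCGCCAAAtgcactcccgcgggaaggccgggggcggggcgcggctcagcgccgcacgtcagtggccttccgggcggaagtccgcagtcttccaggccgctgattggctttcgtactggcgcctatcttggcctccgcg
Orc6 (chr8:85299482-85299631, plus strand): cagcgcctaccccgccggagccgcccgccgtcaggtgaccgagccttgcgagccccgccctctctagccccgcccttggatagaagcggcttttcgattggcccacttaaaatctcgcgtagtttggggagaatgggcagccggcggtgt
Pcna (chr2:132253181-132253330, minus strand): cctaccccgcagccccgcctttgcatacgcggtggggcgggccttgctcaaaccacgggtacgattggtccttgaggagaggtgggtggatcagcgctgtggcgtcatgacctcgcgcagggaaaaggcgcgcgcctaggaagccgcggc

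Mcm6 carried 3 such words, Orc1, Cdc6 and Pola1 carried 1 each in the bases shown. The other genes of the list without a word in the searched window were Ccne1, Cdc45, E2f1, E2f8, Mcm2, Prim1, Rfc4, Rfc5, Rrm1, Rrm2, Tk1 and Tyms. The CHR word TTTGAA, an element known from genes of G2 and mitosis, was found in 5 of the 31 genes (16.1%), against 20.2% of all genes. The word CCAAT, which NF-Y binds, was found in 18 (58.1%), against 41.1%. A match describes the letters only, and a promoter without one may hold another form of the site. By a GRCm38 exon annotation, the searched windows of E2f1, Cdc6 and Mcm7 lie wholly inside the gene. That of E2f1, chr2:154569377-154569676 on the minus strand, does not reach the annotated 5′ end of the gene at 154569892. Bases before that end were not searched, so the lack of a word in E2f1 does not describe them. Mcm4, Gmnn, Gins1, Gins2, Prim2, Pole and Ccne2 had no entry.

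Per kilobase of annotated exon (GRCm38), the 38 genes covered a wide range of levels. The clamp gene Pcna had the highest median over the 30 tumours, 422 normalized counts per kilobase. Gmnn, which encodes geminin, followed with 364, and Orc6, a subunit of the origin recognition complex, with 310. Among the helicase genes the medians per kilobase were 183 for Mcm2, 235 for Mcm3, 183 for Mcm4, 119 for Mcm5, 189 for Mcm6 and 103 for Mcm7. The subunits of this hexamer thus lay within a range of little more than 2-fold. Orc1, the largest subunit of the origin recognition complex, had a median of 7.19 per kilobase and Ccne2, a cyclin E, one of 8.57, the lowest of the list. Read sharing limits some of these levels, since the library kit is not stated to keep strand. Exons of other genes on the opposite strand overlap 84.1% of the exon bases of Fen1 and 70.7% of those of Gins2. Processed pseudogenes with at least 95% identity exist for Cdc6, Mcm7, Pcna, Rfc5, Rrm2, Tyms and Uhrf1.

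**Figure D1:**
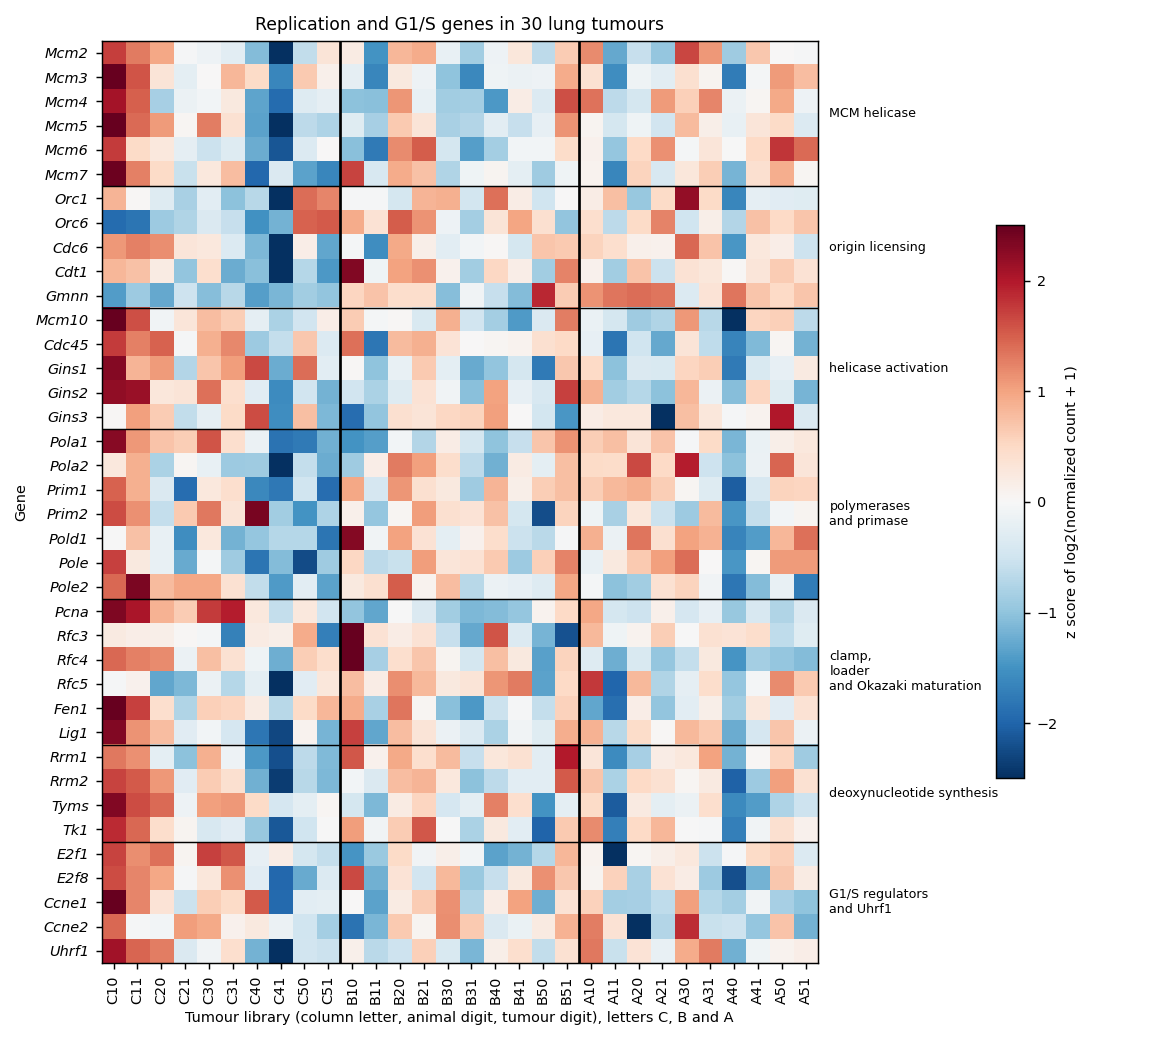
Level of each of the 38 genes in each of the 30 tumours, as the z score of log2(normalized count + 1) over the tumours; columns are tumours of letters C, B and A and genes are grouped by role. Both tumours of animal C1 were high and tumour C41 low across most genes, while Orc6 and Gmnn were below their means in both tumours of C1 as well as in C41.

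On an average over the 38 genes, single tumours ranged more widely than the medians of the letters. As a summary, each gene was turned into z scores over the 30 tumours and the 38 scores were averaged in each tumour. The sister tumours C10 and C11 had the highest averages, 1.49 and 1.01, with 34 and 35 of the 38 genes above their own mean. Tumour C41 had the lowest, -1.58, with 2 genes above their mean, and A40 followed with -1.07 and 3 genes. Both extremes among the 30 tumours thus came from letter C, where the averages ran from -1.58 to 1.49 with a median of -0.06. In letter B they ran from -0.68 to 0.58 with a median of -0.00, and in letter A from -1.07 to 0.48 with a median of -0.01. The medians of the 3 letters differed far less than the tumours within any letter, but a median varies less than single tumours do. Genes that differ in opposite directions also cancel in such an average.

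The 3 letters were compared by limma on the animal means of log2(normalized count + 1), with 5 animals per letter and p-values adjusted by the Benjamini-Hochberg method over all 14539 genes, with calls at an adjusted p under 0.05. Between letters C and A, 5 of the 38 genes were called (13.2%), against 44.8% of all genes. Cdc45, Rfc4, Tyms and Pcna were higher in letter C and Gmnn was lower in letter C, 4 higher, against 21.9% of all genes, and 1 lower, against 22.9%. At an unadjusted p under 0.05 there were 7 of the 38, against 52.6% of all genes. Between letters C and B, 2 of the 38 were called (5.26%), against 16.9% of all genes. They were Pcna, higher in letter C (8.7% of all genes were called higher), and Gmnn, lower in letter C (8.24% called lower). At an unadjusted p under 0.05 there were 6 of the 38, against 32.4% of all genes. Between letters B and A no gene of the list was called by limma or by edgeR on the recovered reads, against 15.2% of all genes by limma, 6.47% higher and 8.77% lower. In that contrast 2 of the 38, Rfc4 and Cdc45, had an unadjusted p under 0.05, against 33% of all genes. Of all genes, 2216 were called for B minus A with every animal and 43 without animal A5. The test over all 3 letters called 4 of the 38 (10.5%), against 45.2% of all genes. The contrasts C minus A and C minus B share the tumours of letter C, and C minus A and B minus A share those of letter A.

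The list as a whole lay close to the centre of all genes. Its median log2 difference was -0.00 for C minus A, 0.01 for C minus B and 0.02 for B minus A, and the medians over all genes were -0.00, -0.01 and 0.00. In size, without sign, the median difference of the list was 0.15 for C minus A, 0.09 for C minus B and 0.06 for B minus A. Over all genes it was 0.23, 0.15 and 0.15. The shares of genes called in the list were below those of the background in each contrast.

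**Figure D2:**
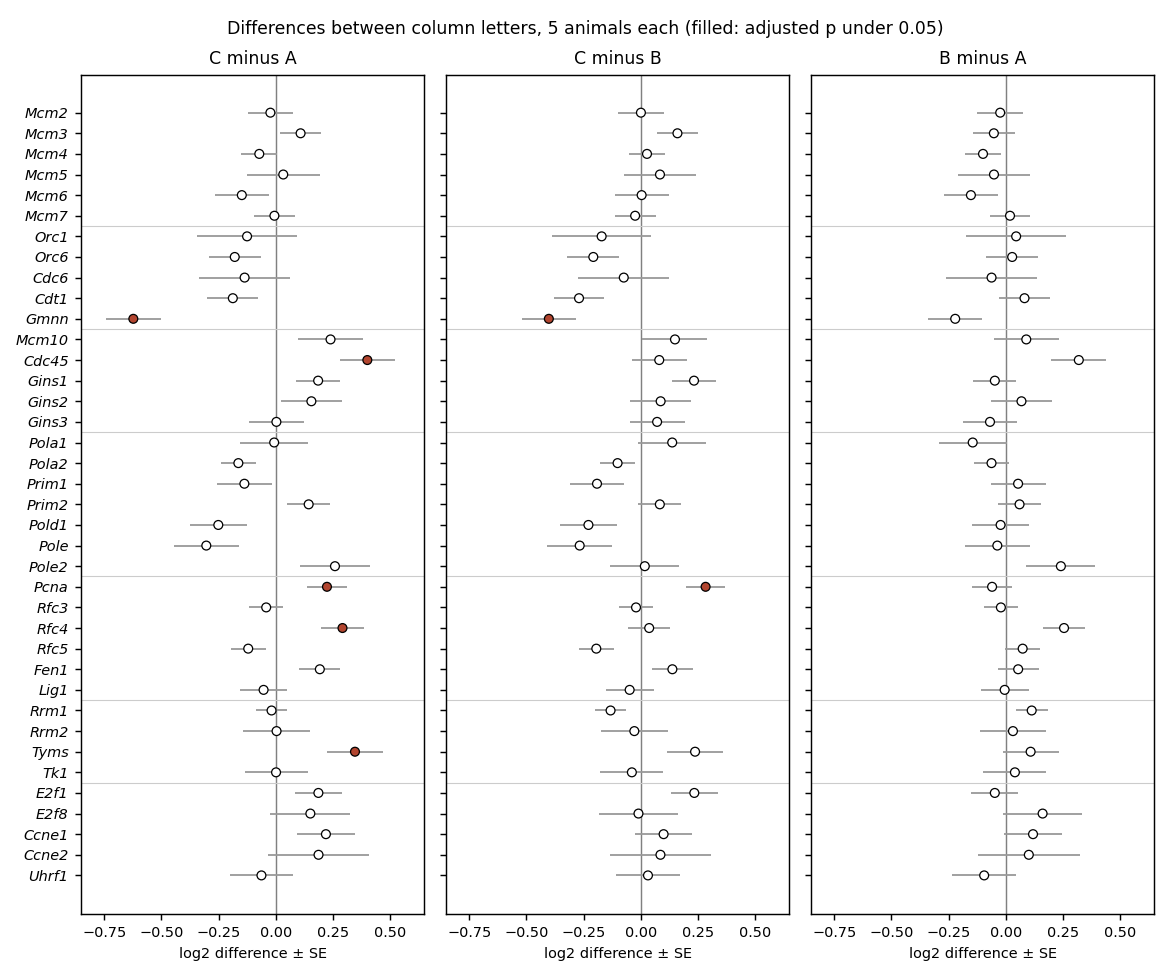
Log2 difference ± SE of each of the 38 genes between letters, from limma on 5 animal means per letter; filled points passed an adjusted p of 0.05. For C minus A the filled points are Gmnn at -0.62 and Cdc45, Tyms, Rfc4 and Pcna between 0.22 and 0.40, and for B minus A no point is filled.

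The MCM helicase, the ring of Mcm2 to Mcm7 that unwinds DNA, held no gene called between letters. None of its 6 genes passed by limma or edgeR, and 0 had an unadjusted p under 0.05 in each contrast. Mcm2 had 444 to 774 normalized counts with a median of 614 in letter C, 511 to 699 with a median of 624 in letter B, and 526 to 769 with a median of 620 in letter A. The ranges of Mcm2 overlapped almost wholly. Mcm6 had 607 to 1073 with a median of 797 in letter C, 640 to 1037 with a median of 800 in letter B, and 721 to 1078 with a median of 881 in letter A. The log2 difference of Mcm6 was -0.15 ± 0.12 for C minus A (SE, adjusted p = 0.319), and among the 6 genes the differences of C minus A lay between -0.15 and 0.11. Mcm5 showed the widest spread of the 6, from 246 normalized counts in C41 to 718 in C10, a 2.92-fold range whose ends both lie in letter C.

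Among the origin licensing genes, Gmnn was the gene whose level followed the letters most closely. It had 303 to 372 normalized counts with a median of 331 in the tumours of letter C, 327 to 649 with a median of 465 in letter B, and 388 to 582 with a median of 520 in letter A. Every tumour of letter C lay below every tumour of letter A. The tumours of letters C and B overlapped, but the 5 animal means of letter C, 314 to 343, lay below the 5 of letter B, 347 to 568. Animal means without overlap were found in 26.4% of all genes between letters C and A in 10.3% between letters C and B, and in 6.84% between letters B and A, where none of the 38 genes had them. The log2 difference was -0.62 ± 0.12 for C minus A (SE, adjusted p = 0.00105), -0.40 ± 0.12 for C minus B (adjusted p = 0.032) and -0.22 ± 0.12 for B minus A (adjusted p = 0.21). Letter C also held the narrowest spread of Gmnn, with animal means of 332 ± 13.2 normalized counts, against 447 ± 90.1 in letter B and 515 ± 63.2 in letter A (SD, n = 5 each).

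The call of Gmnn between letters C and A was kept in 25 of 26 alternative settings. It was lost with the occurrence of the index sequence as a term beside the letter, a setting chosen after the data were seen, which gave -0.44 (adjusted p = 0.348) and left 0 of the 38 genes called in any contrast. Letters A and C share no occurrence, so a fit with the index term compares them only through letter B. The call between letters C and B was lost with that term (adjusted p = 0.194) and without animal B1, B2, B5, C1, C2 or C4, where the adjusted p lay between 0.0506 and 0.078 and the difference between -0.31 and -0.41.

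The other licensing genes were not called in any contrast, although all 5 licensing genes had negative differences for C minus A and for C minus B. Cdt1, the loading factor that geminin binds, had 137 to 260 normalized counts with a median of 194 in letter C, 193 to 338 with a median of 239 in letter B, and 193 to 255 with a median of 237 in letter A. Its groups overlapped, and its log2 difference was -0.27 ± 0.11 for C minus B (SE, adjusted p = 0.106) and -0.19 ± 0.11 for C minus A (adjusted p = 0.18). Orc6 had medians of 422 in letter C, 505 in letter B and 510 in letter A. The difference of Orc6 was -0.18 ± 0.11 for C minus A (adjusted p = 0.214), and without animal C5, whose tumours C50 and C51 were the highest for Orc6 in letter C, it was called, lower in letter C, both for C minus A and for C minus B. Without animal C1, Cdt1 was called, lower in letter C, in the same contrasts. Cdc6, which loads MCM together with CDT1, had medians of 75.8 in letter C, 71.7 in letter B and 75.9 in letter A. Orc1 had medians of 20.2, 21.8 and 21.8 in letters C, B and A, with a highest value of 40.2 in A30 and a lowest of 9.43 in C41.

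**Figure D3:**
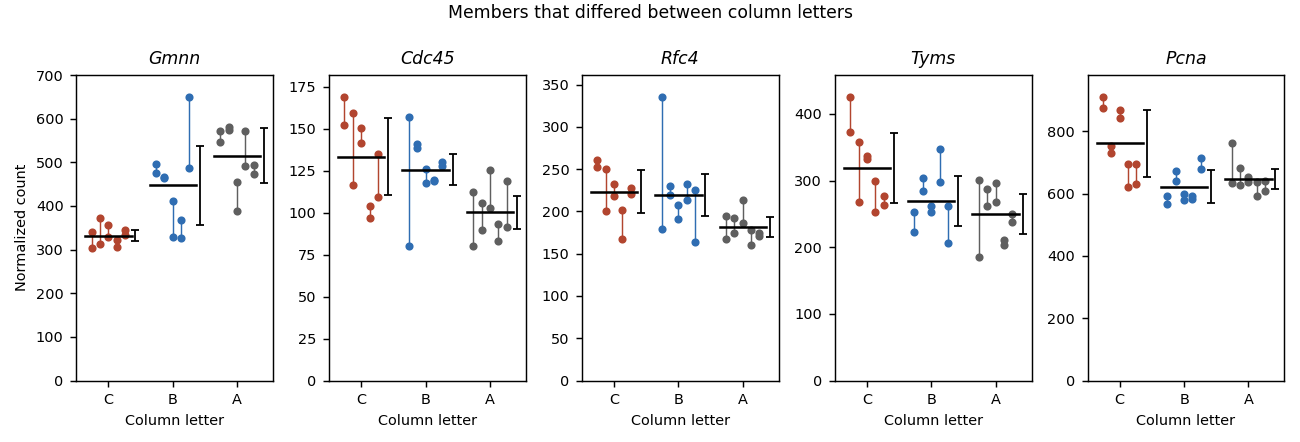
Normalized counts of the 5 genes called between letters, per tumour; a thin line joins the sister tumours of an animal, the horizontal bar is the mean and the whisker 1 SD of the 5 animal means. Gmnn is the gene of the 5 whose tumours of letter C (303 to 372) all lie below those of letter A (388 to 582).

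The genes of helicase activation all had positive differences for C minus A, but Cdc45 alone among the 5 was called. Cdc45, which joins the MCM ring to form the active helicase, had 96.9 to 169 normalized counts with a median of 138 in letter C, 80.2 to 157 with a median of 127 in letter B, and 79.9 to 125 with a median of 97.8 in letter A. The tumours of the letters overlapped, and 6 of the 10 tumours of letter C and 6 of the 10 of letter B lay above the highest of letter A. The log2 difference of Cdc45 was 0.40 ± 0.12 for C minus A (SE, adjusted p = 0.0136), 0.32 ± 0.12 for B minus A (adjusted p = 0.0791) and 0.08 ± 0.12 for C minus B (adjusted p = 0.681). Its call was lost only with the index term (0.39, adjusted p = 0.35). The GINS subunits, which hold CDC45 on the helicase, and Mcm10, which helps to activate it, did not pass. Their differences for C minus A were 0.19 ± 0.09 for Gins1 (adjusted p = 0.123), 0.16 ± 0.13 for Gins2, 0.00 ± 0.12 for Gins3 and 0.24 ± 0.14 for Mcm10 (adjusted p = 0.183). Quantile normalization of the log2 values, another way to scale the libraries, added calls of Mcm10, Gins1 and Gins2, higher in letter C than in letter A.

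None of the 7 polymerase and primase genes was called by limma or edgeR in any contrast, and 1 had an unadjusted p under 0.05 for C minus A. Pole, the catalytic subunit of the leading-strand polymerase epsilon, had 56.8 to 129 normalized counts with a median of 75.3 in letter C, 75.0 to 117 with a median of 98.9 in letter B, and 66.9 to 121 with a median of 99.3 in letter A. The difference of Pole for C minus A was -0.30 ± 0.14 (SE, adjusted p = 0.0953), and its tumours overlapped widely. Its partner subunit Pole2 had a difference of the opposite sign, 0.26 ± 0.15 (adjusted p = 0.176), so the subunits of this polymerase did not share a direction. Pold1, the catalytic subunit of polymerase delta, had -0.25 ± 0.13 (adjusted p = 0.114), and Pola2, the accessory subunit of polymerase alpha, -0.16 ± 0.08 (adjusted p = 0.0887). Pola1, the catalytic subunit of polymerase alpha, had -0.01 ± 0.15. The primase subunits Prim1 and Prim2 had -0.14 ± 0.12 and 0.14 ± 0.09. For C minus A, Pola2, Pold1 and Pole were called lower in letter C without animal A4, as were Pola2 and Pole without animal C1. Prim2 was called higher in letter C without animal C5, and quantile normalization called Prim2 and Pole2 higher.

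The clamp and clamp loader held the calls of Pcna and Rfc4. Pcna, the ring that tethers polymerases to DNA, had 622 to 909 normalized counts with a median of 740 in letter C, 567 to 715 with a median of 596 in letter B, and 593 to 761 with a median of 637 in letter A. The letters overlapped, with the 4 tumours of animals C1 and C3 (841 to 909) above every tumour of letters B and A. The log2 difference of Pcna was 0.22 ± 0.09 for C minus A (SE, adjusted p = 0.0452), 0.28 ± 0.09 for C minus B (adjusted p = 0.0353) and -0.06 ± 0.09 for B minus A (adjusted p = 0.667). The call for C minus A was lost in 14 of 26 alternative settings, among them the fits without animal A2, A3, A4, A5, B2, B3, B4, C1, C2 or C3, where the adjusted p lay between 0.0507 and 0.125 and the difference between 0.16 and 0.23. The call for C minus B was lost in 8, among them the fits without B1, B3, B4, C1, C2 or C3, where the adjusted p lay between 0.0548 and 0.0941 and the difference between 0.22 and 0.29.

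Rfc4, a subunit of the loader that opens the PCNA ring, had 168 to 261 normalized counts with a median of 224 in letter C, 164 to 335 with a median of 217 in letter B, and 160 to 213 with a median of 176 in letter A. Of the 10 tumours of each letter, 7 of letter C and 5 of letter B lay above the highest of letter A, and the ranges overlapped at their lower ends. The log2 difference of Rfc4 was 0.29 ± 0.09 for C minus A (SE, adjusted p = 0.0185), 0.25 ± 0.09 for B minus A (adjusted p = 0.0712) and 0.04 ± 0.09 for C minus B (adjusted p = 0.818). The call was lost without animal C1 (0.24, adjusted p = 0.0539) and with the index term (0.63, adjusted p = 0.0662). The other loader subunits did not go with Rfc4. The difference for C minus A was -0.12 ± 0.08 for Rfc5 and -0.04 ± 0.07 for Rfc3. For C minus B, Rfc5 was the gene with the third smallest p, with a difference of -0.19 ± 0.08 (adjusted p = 0.0943); it had 168 to 236 normalized counts with a median of 221 in letter C and 194 to 268 with a median of 247 in letter B. Fen1, which trims the flaps of Okazaki fragments, had 0.19 ± 0.09 for C minus A (adjusted p = 0.091), and Lig1, which joins the fragments, had -0.05 ± 0.10.

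Of the 4 genes of deoxynucleotide supply, Tyms was called. Tyms, thymidylate synthase, had 253 to 425 normalized counts with a median of 316 in letter C, 207 to 347 with a median of 262 in letter B, and 186 to 300 with a median of 256 in letter A. The letters overlapped, and the 5 highest values among letters C and A came from tumours of letter C. The log2 difference was 0.35 ± 0.12 for C minus A (SE, adjusted p = 0.0317), 0.24 ± 0.12 for C minus B (adjusted p = 0.195) and 0.11 ± 0.12 for B minus A (adjusted p = 0.57). The call was lost in 7 of 26 settings, among them the fits without animal A1, A4, A5, C1 or C3, where the adjusted p lay between 0.059 and 0.0895 and the difference between 0.26 and 0.34. Without the libraries A11, C11 and C21 the calls of Tyms (0.34, adjusted p = 0.0552) and Pcna (0.21, adjusted p = 0.0836) were lost and 3 of the 38 were left. Rrm1 and Rrm2, the subunits of ribonucleotide reductase, had differences for C minus A of -0.02 ± 0.07 and 0.00 ± 0.15, and Tk1, which salvages thymidine, had 0.00 ± 0.14.

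None of the 5 genes of the last role, the G1/S regulators with Uhrf1, was called by limma or edgeR in any contrast, and 1 had an unadjusted p under 0.05 for C minus B. E2f1, an activating E2F, had 328 to 463 normalized counts with a median of 397 in letter C, 287 to 406 with a median of 337 in letter B, and 233 to 392 with a median of 362 in letter A. The difference of E2f1 was 0.23 ± 0.10 for C minus B (SE, adjusted p = 0.127) and 0.19 ± 0.10 for C minus A (adjusted p = 0.151). Ccne1, a cyclin E that activates CDK2, had 0.22 ± 0.13 for C minus A (adjusted p = 0.169), and Ccne2 had 0.19 ± 0.22. E2f8, an E2F that represses its targets, had 0.15 ± 0.17. Uhrf1, which carries DNA methylation through replication, had -0.06 ± 0.14.

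Of 418 pairs of a gene of the list and a marker list, 2 were called, both with Gmnn. Genes outside the list were not tested against the marker lists, so how common such calls are among all genes is not known. The summed level of the 3 club cell markers (Scgb1a1, Scgb3a2 and Cyp2f2, 3 of 3 in the table and none at 0) was 578820 to 1390990 normalized counts in letter C, 598001 to 2581490 in letter B and 1097740 to 3435070 in letter A. Over the 15 animals Gmnn correlated with it at r = 0.868 and rho = 0.843 (permutation test, adjusted p = 0.0105 and 0.0209 over the 418 pairs). Without the 2 animals farthest from the median of the marker level, r was 0.815. After the mean of each letter had been subtracted, r over the 30 tumours was 0.77. The 6 erythroid markers, hemoglobins among them, summed to 141 to 413 in letter C, 154 to 970 in letter B and 361 to 625 in letter A, and gave r = 0.880 and rho = 0.871 over the animals (permutation test, adjusted p = 0.00836 and 0.0209), r = 0.895 without the 2 farthest and r = 0.73 within letters over the tumours. For alveolar type 2 markers r with Gmnn was -0.804 and rho -0.729 (permutation test, adjusted p = 0.0627 and 0.124). For macrophage markers r was -0.720 and rho -0.771 (permutation test, adjusted p = 0.122 and 0.115), and for ciliated cell markers, 3 of 4 names in the table, r was 0.665 and rho 0.625 (permutation test, adjusted p = 0.202 and 0.328). The other genes called between letters C and A had no called pair. By the size of r, Rfc4 was closest to the alveolar type 2 markers, with r = 0.773 and rho = 0.621 (permutation test, adjusted p = 0.0873 and 0.328). Tyms, Cdc45 and Pcna were by the same measure closest to the macrophage markers, with r = 0.744, 0.690 and 0.549 and rho = 0.743, 0.714 and 0.446 (permutation test, adjusted p of r = 0.0873, 0.184 and 0.344, and of rho = 0.122, 0.144 and 0.581). With the letter means subtracted, r over the tumours was 0.47 for Rfc4, 0.50 for Tyms, 0.17 for Cdc45 and 0.31 for Pcna. The marker sums had medians of 2747710, 2680440 and 1879190 for alveolar type 2 cells and of 12347, 9663 and 7682 for macrophages in letters C, B and A. The part of these cells in the levels of the 5 genes was not tested.

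**Figure D4:**
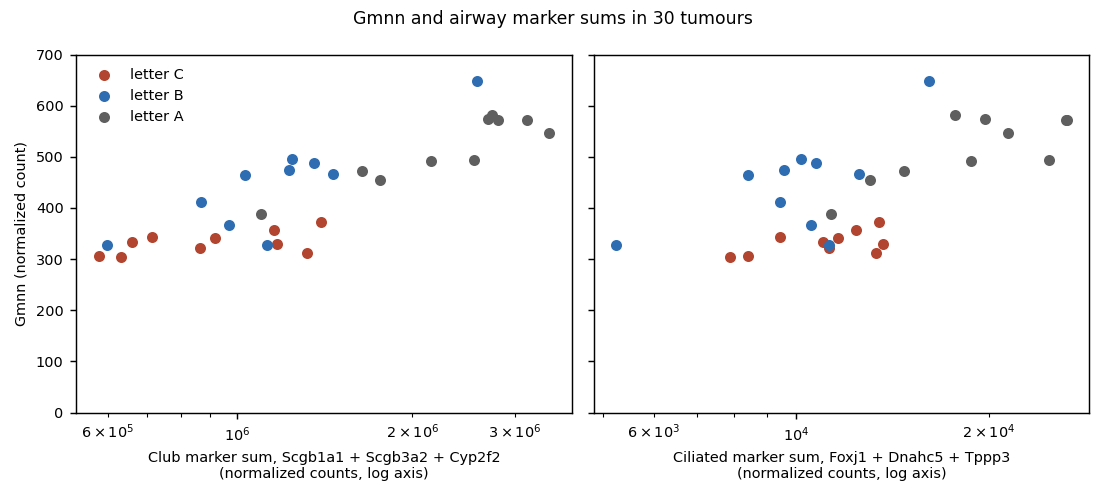
Gmnn against the summed level of club cell markers (left) and ciliated cell markers (right) in the 30 tumours, in normalized counts, with log x axes; colours mark letters C, B and A. The tumours of letter C lie at 303 to 372 for Gmnn and at 578820 to 1390990 for the club sum, and tumour B50, with the highest Gmnn (649), has the highest club sum of letter B (2581490).

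Genes of the same pathway outside the 38 were read from lists chosen by function. Of 36 other fork and origin genes, 35 were tested, and 8 were called for C minus A (22.9%), against 44.8% of all genes. Dbf4, the activator of the CDC7 kinase that fires origins, was higher in letter C than in letter A by 0.29 ± 0.08 (SE, adjusted p = 0.00994), as were Pole4, a small subunit of polymerase epsilon, by 0.22 ± 0.05 (adjusted p = 0.00247) and Mcmbp, a partner of MCM proteins, by 0.22 ± 0.05 (adjusted p = 0.00298). Tipin, a fork protection factor, was lower in letter C, with -0.43 ± 0.08 (adjusted p = 0.00112), and Rfc1, Rfc2, Rpa1 and Rpa3 were lower with differences between -0.16 and -0.27. For C minus B, 3 were called (8.57%), against 16.9% of all genes: Pole4 and Mcmbp higher and Tipin lower in letter C. For B minus A, 2 were called (5.71%), against 15.2% of all genes: Dbf4 higher and Rfc2 lower in letter B. For C minus A, 0 of the 35 were called with the index term and 13 with the 30 tumours as units, and without tumours A11, C11 and C21 the count for B minus A was 0. The large loader subunit Rfc1 and the subunit Rfc2 thus had the opposite sign to Rfc4 for C minus A.

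Of 12 other genes of nucleotide synthesis, 4 were called for C minus A (33.3%), against 44.8% of all genes, and all 4 were higher in letter C, against 21.9% of all genes. Dck, deoxycytidine kinase, had 0.38 ± 0.10 (SE, adjusted p = 0.00582), and Umps, of pyrimidine synthesis, had 0.27 ± 0.07 (adjusted p = 0.00414). Cad and Paics, of pyrimidine and purine synthesis, had 0.16 ± 0.06 and 0.14 ± 0.04. For C minus B, Dck, Umps and Gart were called (25%), against 16.9% of all genes. All 3 were higher in letter C, against 8.7% of all genes. For B minus A none was called by limma or edgeR, against 15.2% of all genes by limma, with 1 at an unadjusted p under 0.05. For C minus A, 1 of the 12 was called with the index term and 6 with quantile normalization, and for C minus B 1 was called with quantile normalization.

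Of the 29 other G1/S regulators, 10 were called for C minus A (34.5%), against 44.8% of all genes, 9 for C minus B (31%), against 16.9%, and 3 for B minus A (10.3%), against 15.2%. Cdkn1a, which encodes the CDK inhibitor p21, was higher in letter C than in letter A by 0.97 ± 0.10 (SE, adjusted p = 4.34e-05), in letter C than in letter B by 0.58 ± 0.10 (adjusted p = 0.00242) and in letter B than in letter A by 0.38 ± 0.10 (adjusted p = 0.0267). Of the 6 other CDK inhibitors of the list, 3 were called, all lower in letter C than in letter A, against 22.9% of all genes. Cdkn1c had -0.82 ± 0.14 for C minus A (adjusted p = 0.000468), Cdkn2c -0.61 ± 0.11 (adjusted p = 0.000904) and Cdkn1b -0.31 ± 0.07 (adjusted p = 0.00327). The differences of Cdkn2a (0.20 ± 0.28), Cdkn2b (0.30 ± 0.15) and Cdkn2d (-0.26 ± 0.17) did not pass (adjusted p = 0.577, 0.119 and 0.233). Myc, a transcription factor of growth, was higher in letter C than in letter A by 0.74 ± 0.11 (adjusted p = 0.000289), and Cdc25a, a phosphatase that activates CDK2, by 0.41 ± 0.08 (adjusted p = 0.00153). Cdk2, the partner of cyclin E, was higher both for C minus A, 0.35 ± 0.09, and for B minus A, 0.34 ± 0.09. With the index term 2, 6 and 0 of the 29 were called for C minus A, C minus B and B minus A, and without tumours A11, C11 and C21 1 was called for B minus A.

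The 16 genes of G2 and mitosis taken for comparison were not called by limma on the animal means in any contrast. The shares of all genes called were 44.8% for C minus A, 16.9% for C minus B and 15.2% for B minus A. For C minus A edgeR called 1, as did limma with the 30 tumours as units. Quantile normalization called 4 of the 16 for C minus A and 4 for B minus A. An unadjusted p under 0.05 was found in 2 for C minus A (52.6% of all genes) and 7 for B minus A (33%). Animal means of letters B and A did not overlap in 3, against 6.84% of all genes. All 16 had positive differences for C minus A, with a median of 0.24, and for B minus A, with a median of 0.32. The medians over all genes were -0.00 and 0.00. The 16 signs are not independent, since these genes vary together, with a median r of 0.80 with the averaged z score of the 38 genes. Of the 38 replication genes, 19 had a positive difference for C minus A and 20 for B minus A.

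The spread of the 38 genes over the 30 tumours had a median SD of 0.24 on the log2 scale, against 0.23 for all genes tested. Ccne2 varied most, with an SD of 0.41 and 12.6 to 46.8 normalized counts. Orc1 had 0.38, Cdc6 0.36, E2f8 0.34 and Gmnn 0.33. Ccne2 and Orc1 are also the genes with the fewest reads, so that counting error takes a larger part of their spread. Rfc3 varied least, with an SD of 0.13. Rrm1, Pola2, Mcm4 and Mcm7 each had 0.15.

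Sister tumours were then set against tumours of other animals of the same letter. The intraclass correlation is the share of the spread within letters that lies between animals, and falls below 0 where sister tumours are less alike than tumours of different animals. Its median over the 38 genes was 0.41, against 0.36 over all genes tested. Mcm6 had the highest value, 0.76, followed by Pcna with 0.75 and Pola1 with 0.74. Gins1 had the lowest, -0.27, followed by Rfc5 with -0.11 and Rfc4 with -0.09. By limma's F test of animals within letters, 10 of the 38 genes (26.3%) differed between animals, against 26.2% of all genes. They were Mcm5, Mcm6, Orc6, Cdc6, Gmnn, Pola1, Prim1, Pcna, Rrm2 and Uhrf1, the smallest adjusted p being that of Mcm6 (0.0014). None of the 5 helicase activation genes was among them at the adjusted p, and 1 of them, Gins2, had an unadjusted p under 0.05. Pcna shows what such a gene looks like, with 909 and 876 normalized counts in the tumours of animal C1 and 841 and 867 in those of C3, against 694 and 622 in those of C4. Cdc45, in contrast, had 157 and 80.2 in the tumours of animal B1. The count of 10 became 16 without animal A1.

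On the averaged z score of the 38 genes, sister tumours lay between 0.07 apart, in animal A2, and 1.13 apart, in animal A1. In animal C4 the gap was 1.10 and in animal B1 it was 1.03.

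The genes varied together over the tumours. Of the 703 pairs that 38 genes make, 623 had a positive Pearson r over the 30 tumours, the median r was 0.41 and the quartiles were 0.20 and 0.57. Between the 38 genes and the 14501 other genes tested, the median r was -0.00, with quartiles of -0.19 and 0.19. The tumours are not independent, since each animal gave a pair, so the pairs of genes were tested on the 15 animal means with 100000 permutations. There 144 pairs had a positive and 1 a negative r at an adjusted p under 0.05 over the 703 pairs (20.6%). Pairs of other genes were not tested in this way, so this share has no background to be set against. The letter means were not subtracted in this test, so differences between letters enter it. By Spearman's rho 4 positive and 0 negative pairs passed. The median r over 30 tumours was 0.33 without animal C1, whose tumours were the highest for most genes, and was 0.49 after the letter means had been subtracted.

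The pair with the highest r over the 30 tumours was Mcm2 with Uhrf1, at 0.86. Over the 15 animals it had r = 0.873 and rho = 0.718 (permutation test, adjusted p = 0.00527 and 0.0666), and r = 0.669 without the 2 animals farthest from the median of Mcm2. The pair with the lowest r was Tyms with Gmnn, at -0.64. Over the 15 animals it had r = -0.702 and rho = -0.679 (permutation test, adjusted p = 0.0239 and 0.0697), r = -0.742 without the 2 animals farthest from the median of Gmnn, and r = -0.41 over tumours after the letter means had been subtracted. It was the pair with the negative call.

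**Figure D5:**
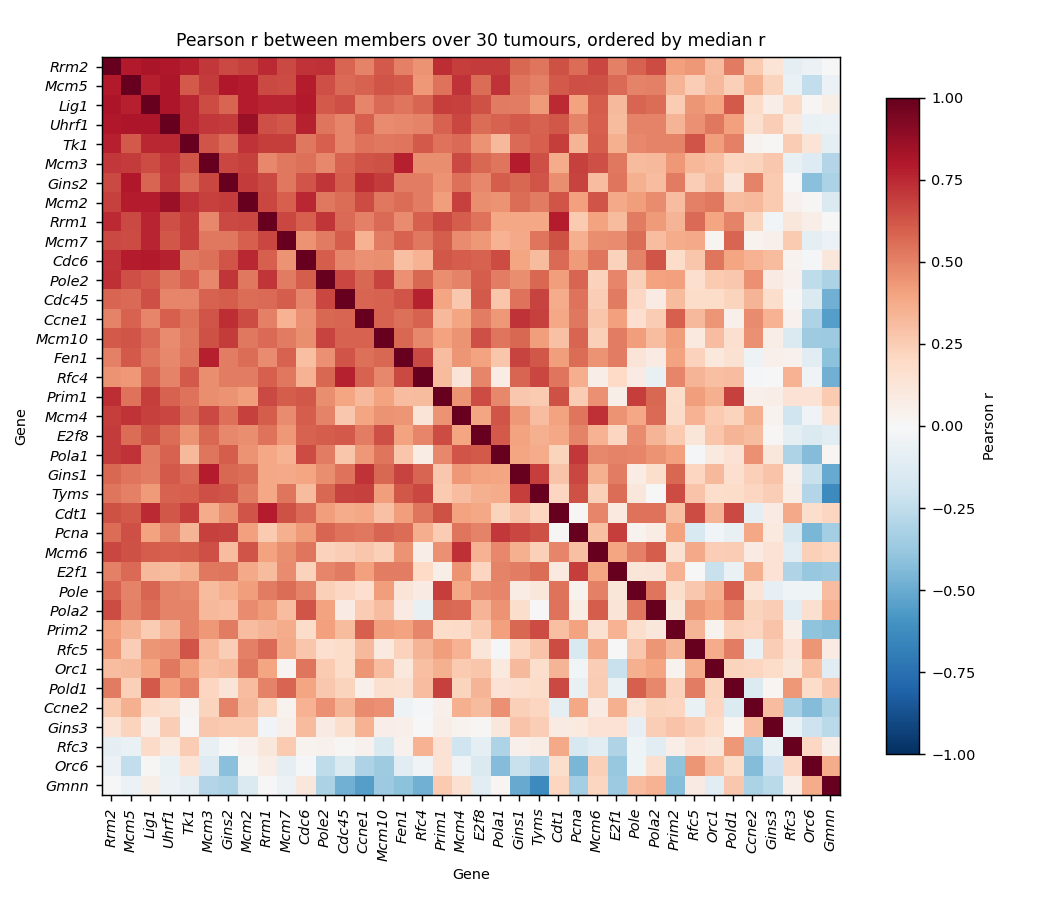
Pearson r between the 38 genes over 30 tumours, on log2(normalized count + 1), ordered by each gene's median r with the other 37. Rrm2, Mcm5, Lig1 and Uhrf1 stand at the top with medians of 0.56 to 0.61, and Orc6 and Gmnn at the bottom with -0.06 and -0.09.

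Genes differed in how far they took part. Rrm2 had the highest median r with the other genes, 0.61, followed by Mcm5 with 0.59, Lig1 with 0.58 and Uhrf1 with 0.56. Their roles range from nucleotide supply and DNA unwinding to ligation and methylation upkeep. At the other end stood Gins3 with 0.12, Rfc3 with 0.04, Orc6 with -0.06 and Gmnn with -0.09. The licensing genes did not stand together, since Cdc6 had 0.50, Cdt1 0.42 and Orc1 0.30. Subunits of a complex also split. Gins2 had 0.53 and Gins1 0.43, against 0.12 for Gins3, and Rfc4 had 0.45, against 0.04 for Rfc3.

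Genes outside the list with the most similar pattern were sought by their r with the averaged z score over the 30 tumours. Among the 10 nearest were Cdca8 with 0.91, Cdk1 with 0.88, Ccna2 with 0.86, Aurkb, Kif4, Mad2l1 and Nrm with 0.85, and Ncaph and Pbk with 0.84. The median r with the averaged z score was 0.80 over the 16 G2 and mitosis genes, 0.29 over the 35 other fork and origin genes, 0.27 over the 12 other genes of nucleotide synthesis and 0.08 over the 29 other G1/S regulators. The averaged z scores of the 38 genes and of the 16 G2 and mitosis genes had r = 0.85 over the tumours, and r = 0.92 with the letter means subtracted. Against the 11 cell marker lists, that of the alveolar type 2 markers with r = 0.24 among them, the averaged z score had r between -0.24 and 0.33. The last was for macrophage markers, whose sums were 8755 to 15122 normalized counts in letter C, 6000 to 13250 in letter B and 5538 to 9627 in letter A, with 6 of 7 names in the table and none at 0.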

How the data were processed

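Per the labels, total RNA from an RNeasy Plus Mini extraction went into TruSeq v2 RNA libraries, and whether strand was kept is not given in the sources used here. DESeq 1.14.0, HTSeq, TopHat 1.3.3 and the build mm9 are named, without role or order, per the submitters' processing notes. The authors deposited a single table of gene-level signal values, which are normalized counts: in every library 100% of the values came out as whole reads, to within 0.01 read, once divided by the value of 1 read. All 30 columns were used and 0 left out, but none matched a sample title, so treatments were not assigned. The members and all lists were chosen with earlier results of these data known.

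Values were taken as log2(value + 1), sister tumours averaged, and letters compared over the 15 animals with limma 3.58.1 (trend, robust) in R 4.3.3, with Benjamini-Hochberg adjustment over 14539 genes and a threshold of 0.05. The consensus correlation of sister tumours was 0.364. No label says how the columns relate to animals, so all p-values rest on animals read from the names. The p-values for letters are set only against the spread between the means of these animals. Those for animals within letters are set only against the spread between sister tumours. Named genes were, per contrast, those called (or the 3 of smallest p), the 5 of largest and smallest SD, the 3 of highest and lowest intraclass correlation, the extreme pairs, and the 10 nearest other genes, 1 of which is not reported here; the remaining genes are given to account for the whole list, and the 6 promoters shown were chosen after matches and tests were seen. Alternatives were other pseudocounts, filters and normalizations, tumours with a random animal effect, edgeR 4.0.16 on recovered reads, each animal left out and the first digit as a block; leaving out A11, C11 and C21 and the index term were added after the data were seen. Fits were tested on simulated data. Correlations and motifs used Python 3.11.15 with scipy 1.17.1. Promoters came from RefSeq (GRCm38.p6). Exon lengths, exon overlaps, gene starts and the transcripts searched for pseudogenes came from a GRCm38 annotation, while the build named by the submitters is mm9. No coordinate was moved between builds.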

Additional observations from a re-analysis of the deposited data

Results flagged for a closer look

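Each of the 38 genes was looked at within each letter, 114 groups of 10 tumours, for a highest or lowest tumour set far apart from the rest by Dixon's criterion, which chance meets in about 1 in 20 groups. It was met in 7. Cdc45 was at 80.2 normalized counts in tumour B11, against 118 to 157 in the other tumours of letter B. Rfc4 was at 335 in its sister B10, against 164 to 233. Rfc5 was at 194 in tumour B50, against 234 to 268. Gins3 was at 42.9 in tumour A21, against 61.4 to 90.8 in the other tumours of letter A. Pola1 was at 142 and Prim1 at 129 in tumour A40, against 170 to 200 and 165 to 201. E2f1 was at 233 in tumour A11, against 331 to 392, and A11 is the library that correlated least with the others.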

How the results depend on the processing

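Counts of the 38 genes and of all genes stayed within 1.5 times of the reported ones with other pseudocounts, filters and TMM scaling, with tumours as units and with edgeR, which called 6467, 2441 and 2302 of all genes for C minus A, C minus B and B minus A. Quantile normalization gave 2 genes of the list for B minus A, 12 for C minus A and 9 over the 3 letters. The first digit as a replicate block gave 1 for C minus B; it lost Pcna there (adjusted p = 0.05, limma) and for C minus A (adjusted p = 0.0573), and no other call. No label says whether the digits pair the animals. Deviations of same-digit animals correlated at -0.221 to 0.508 over 15 pairs, with a median of -0.0379 and 4 of them above 0.1. The nearest animal of another letter had the same digit in 8 of 30 cases. These values cannot settle it, since a pairing need not show in expression. Leaving out A11, C11 and C21 gave 3 for C minus A. With the index term, 0 of the list were called for C minus A, C minus B and over the 3 letters, and 759, 1499, 145 and 1570 of all genes for C minus A, C minus B, B minus A and over the 3 letters. Only animal B1 of letter B shares an occurrence with letter A, and no animal of letter C does. Calls lost with this term therefore cannot separate the letters from the order. The share of higher calls was then 67.7% for C minus A, against 48.9%, and 87.6% for B minus A, against 42.5%. The cause of these shifts was not tested.

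With each animal left out in turn, the list had 3 to 7 calls for C minus A, 0 to 3 for C minus B, 0 to 2 for B minus A, 2 to 6 over the 3 letters and 7 to 16 between animals. All genes had 5504 to 6716, 1506 to 2850, 43 (without A5) to 3432 (without A3), 5342 to 6983 and 2595 to 4443 calls in the same order. Cdc45 and Rfc4 were called for B minus A with quantile normalization and without A3 or C4, Rfc4 also without B5. None of the named differences between letters changed sign in the settings run. The median r lay between 0.33 and 0.43 over the animals left out. Depth limits most the genes of lowest count, Orc1 (9.43 to 40.2 normalized counts) and Ccne2 (12.6 to 46.8).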
